A study of Sus scrofa with 12 samples.

Results

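Pig hind-leg muscle was compared 6 h and 20 min after death. The comparison set the 3 arrays titled as the 6 h samples against the 3 arrays titled as the 20 min samples, each 6 h array paired with the 20 min array of the same pig by the pig number in the title. These were 6 of the 12 arrays of the series, and all 23999 probe sets other than the controls, of 24123 on the array, were tested. The groups shared the same 3 animals: female commercial hybrid pigs of about 160 kg, from 1 farm, stunned at 1 abattoir with 87% CO2. Portions of 3 to 5 g of the semimembranosus, a large muscle at the back of the thigh, were cut from the left leg while the carcass went through the cold chain to 4 °C. No live or unchilled group was included, so time after death, cooling and the repeated cutting of 1 muscle cannot be told apart. The portions at 2 h and 24 h came from the same muscles and are used only beside the 6 h values. RNA was labelled with biotin and hybridised to Affymetrix porcine arrays, and the values are log2 intensities made with RMA, a method that gives all arrays the same overall distribution.

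When blood flow stops, muscle loses its oxygen supply. Mitochondrial respiration ceases, glycogen is broken down to lactate, the fibres become acid, and the exhaustion of ATP leads to rigor. Messenger RNA can persist in the cooling tissue, and its level then depends on how fast each transcript is lost and on any synthesis that goes on after death. RMA values are relative to the other transcripts on an array, so a loss shared by all transcripts would not be visible in them.

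The tissue matched its label: 11 genes of the skeletal fibre list, among them CKM, the muscle creatine kinase, had a median level of 14.18 on the log2 scale. The medians of the arrays lay between 5.89 and 5.94, and no pair of the 6 arrays correlated below r = 0.986 over probe sets. The differences between 6 h and 20 min were spread unequally over the animals, with SDs over probe sets of 0.20, 0.25 and 0.24 for pigs 1 to 3. As a measure of RNA quality, the 3′ minus 5′ signal of the control for the elongation factor EF1A was different at 6 h by 0.06, -0.04 and 0.21 for pigs 1 to 3. The same measure differed by -0.34, -0.20 and -0.01 in the 3 pigs for actin and by -0.005, -0.085 and -0.045 for GAPDH. The exact two-sided permutation p was 0.50 for EF1A and 0.25 for the other controls, and 0.25 is the smallest p that 3 pairs allow. The part of RNA quality in the differences below was not tested.

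No probe set differed between 6 h and 20 min at an adjusted p under 0.05 in limma, and the smallest adjusted p was 0.276. At an unadjusted p under 0.05 there were 2119 probe sets, or 8.83% of those tested, against 1199.95 expected on average where nothing differs. Probe sets are not independent and the same 3 pigs carry them all, so the count can stray from that average, and the excess was not tested. It was 1073 without pig 2 and 879 without the block for pig. The 2119 were split into 1029 with a higher mean at 6 h (4.29%) and 1090 with a lower one (4.54%). Most differences were small: the median absolute log2 difference was 0.09, and the 95% interval lay within 1.5-fold either way for 94.7% of probe sets and within 2-fold for 99.5%. These shares include the dimmest 6000 probe sets, at levels of 2.70 to 4.22, of which 2 were over 1.5-fold higher and 1 lower. How many of those detected a transcript is not known. A mean difference over 1.5-fold was found in 20 probe sets with higher (0.0833%) and 59 with lower (0.246%) values at 6 h, of which 16 (0.0667%) and 51 (0.213%) had the same direction in 3 of 3 pigs. Of these 79 probe sets, 52 had their greatest difference in pig 2, 25 had it in pig 3 and 2 in pig 1. The plot of level against difference shows that the differences over 1.5-fold were not limited to dim probe sets.

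**Figure D1:**
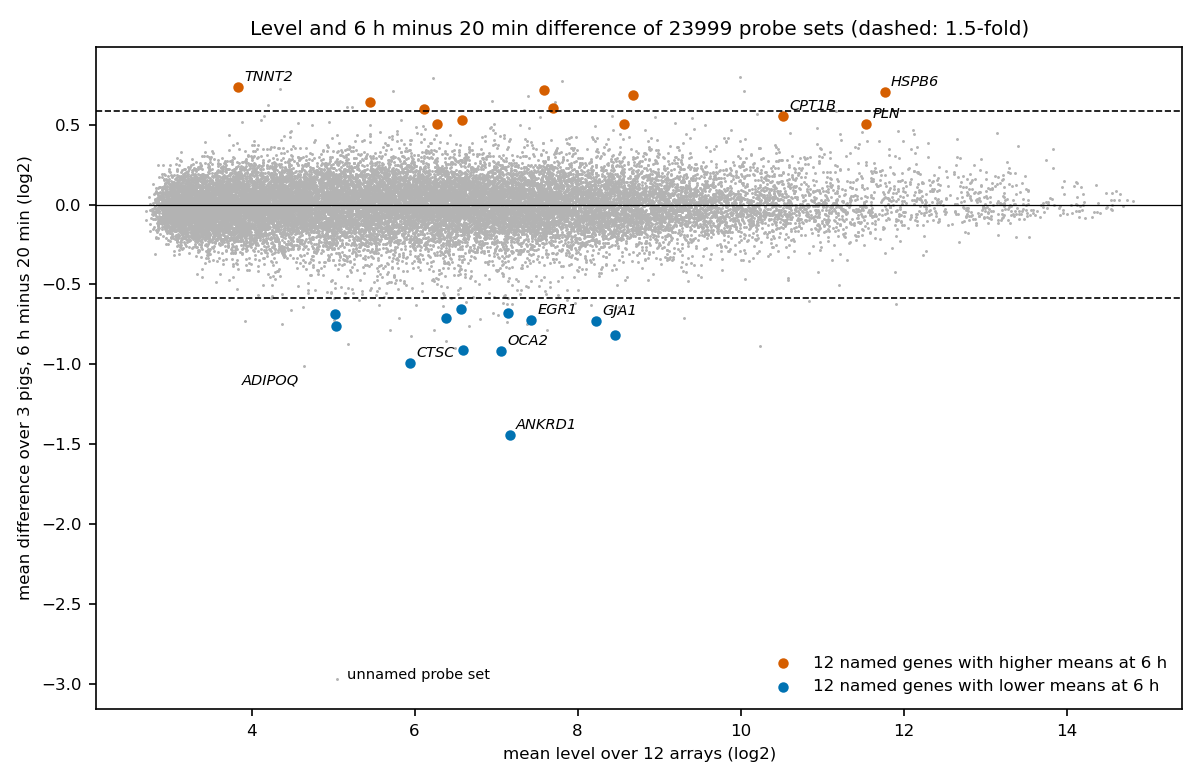
Mean level over 12 arrays (horizontal, log2) and mean difference between 6 h and 20 min over 3 pigs (vertical, log2) of 23999 probe sets (grey), with the 24 genes named by rule in colour. 20 probe sets lie above and 59 below the dashed 1.5-fold lines, and the 3 past 2-fold are all lower at 6 h.

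Mean differences over 2-fold were found in 3 probe sets (0.0125%), all toward lower values at 6 h. The greatest difference, 7.82-fold, belonged to a probe set without a gene name here. It read 3.79, 8.07 and 9.48 at 20 min in pigs 1, 2 and 3, then 3.51, 3.40 and 5.53 at 6 h. The difference was thus -0.28 in pig 1, where the level was already low, and -4.67 and -3.95 in the other pigs; the adjusted p was 0.488. ADIPOQ, which encodes the fat-cell hormone adiponectin, showed the same arrangement, with 4.01, 5.57 and 6.52 at 20 min and 4.11, 4.28 and 4.67 at 6 h. Its differences were 0.11, -1.29 and -1.85, and its adjusted p was 0.498. These probe sets were singled out after their values were seen.

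ANKRD1, a stretch-responsive protein of the sarcomere and nucleus of striated muscle, had the lowest difference of any named gene. Its levels at 20 min were 5.79, 10.11 and 8.57 in pigs 1 to 3, and those at 6 h were 4.70, 7.96 and 7.49. Each pig was lower at 6 h, but the pigs lay so far apart that the groups overlapped. The mean difference was -1.44 ± 0.62 (SD, n = 3 pigs), or 2.71-fold lower, with an adjusted p of 0.463. A brighter ANKRD1 probe set gave -0.62.

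OCA2, a membrane transporter of melanosomes known from pigmentation, had the smallest adjusted p of the comparison, 0.276. It read 7.12, 8.75 and 7.65 at 20 min and 6.44, 7.49 and 6.83 at 6 h. All 3 pigs were lower at 6 h, by -0.67, -1.26 and -0.82, with a mean difference of -0.92 ± 0.30 (SD, n = 3 pigs), or 1.89-fold lower. With arrays weighted by their agreement with the model it was the 1 probe set that passed, at an adjusted p of 0.0482.

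The gap-junction protein gene GJA1 read 8.18, 8.67 and 9.61 at 20 min and 7.93, 7.25 and 9.10 at 6 h. Its difference of -0.73 ± 0.61 (SD, n = 3 pigs) was greatest in pig 2 (-1.42). MSTN, which encodes myostatin, a secreted inhibitor of muscle growth, was lower in each pig on both of its probe sets, with mean differences of -0.76 on the one named and -0.63 on the brighter one. On the brighter set the levels were 5.96, 6.47 and 7.48 at 20 min and 5.56, 5.49 and 6.96 at 6 h, so the groups overlapped.

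Among the genes with higher means at 6 h, HSPB6, a small heat shock protein of striated and smooth muscle, combined a high level with a wide difference. Its levels were 11.70, 11.40 and 10.62 at 20 min and 11.93, 12.52 and 11.37 at 6 h. The differences of the 3 pigs were 0.23, 1.12 and 0.76, with a mean of 0.70 ± 0.45 (SD, n = 3 pigs), or 1.63-fold higher, and an adjusted p of 0.463.

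CPT1B, the muscle form of the enzyme that commits fatty acids to import into mitochondria, read 10.38, 10.40 and 9.71 at 20 min and 10.66, 11.06 and 10.43 at 6 h. Every 6 h array lay above every 20 min array, as for 4.24% of all probe sets. The mean difference was 0.55 ± 0.24 (SD, n = 3 pigs), or 1.47-fold higher, with an adjusted p of 0.454.

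PLN, which encodes phospholamban, the inhibitor of the slow-type calcium pump, read 11.15, 11.37 and 11.05 at 20 min and 11.31, 11.96 and 11.81 at 6 h on the named probe set. The mean difference was 0.50 there and 0.35 on a brighter set. TNNT2, the cardiac form of troponin T, was dim, at 3.79, 3.30 and 3.52 at 20 min and 4.08, 4.68 and 4.06 at 6 h. Its difference of 0.73 ± 0.57 (SD, n = 3 pigs) was the highest of the named genes and was greatest in pig 2 (1.37).

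The plot of 8 genes over the 4 times shows these differences beside those between the animals.

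**Figure D2:**
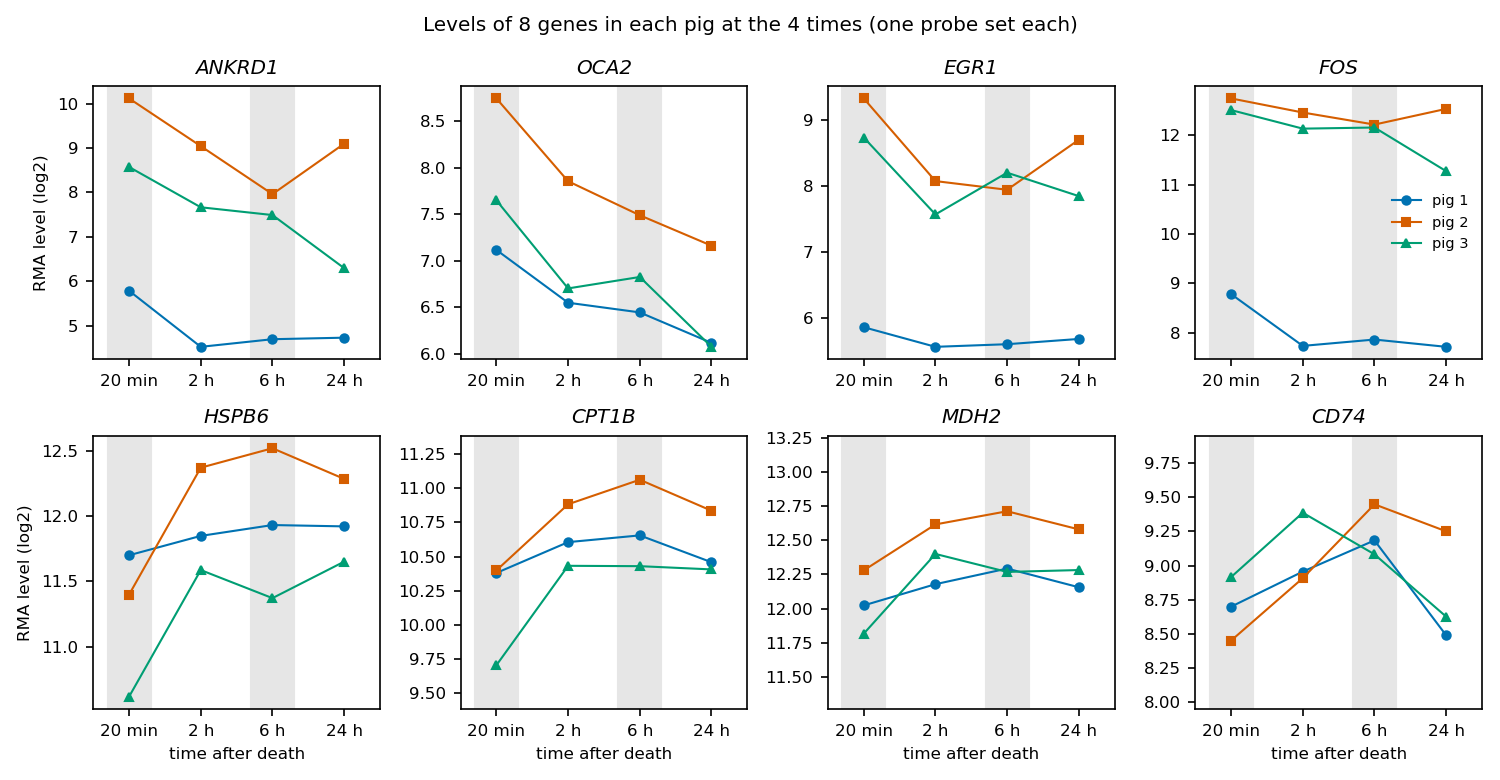
RMA levels (vertical, log2) of 8 genes at 20 min, 2 h, 6 h and 24 h after death (horizontal), 1 line for each pig, with the compared times shaded; vertical scales differ between genes. In ANKRD1, EGR1 and FOS the pigs lie further apart than the times, and in CPT1B the 3 arrays at 6 h (10.43 to 11.06) lie above those at 20 min (9.71 to 10.40).

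The 24 genes named by rule, 12 with higher and 12 with lower means, had adjusted p between 0.276 and 0.488. None had its greatest difference in pig 1, 17 had it in pig 2 and 7 in pig 3. The groups did not overlap in 6 of the 12 with higher means and in 3 of the 12 with lower means, but these genes were taken from the smallest p-values, so the counts are a description. The other genes with higher means were LOC595122, CAV1, C17H8orf4, CLIP4, TM9SF4, SENP2, SERHL2 and AKR1CL1, with differences from 0.50 to 0.72. The others with lower means were CTSC (-0.99), CRYAB (-0.91), HSP90AA1 (-0.82), EGR1 (-0.72), RPL6 (-0.71), RND3 (-0.68), the gene annotated as EF1ALPHA (-0.68) and MED4 (-0.65).

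For many of these genes the value depended on the probe set. In 9 of the 12 with lower means, and in 5 of the 12 with higher means, the named set was not the brightest set of its gene. HSP90AA1, the inducible cytosolic chaperone HSP90, read 8.64, 8.89 and 9.23 at 20 min and 8.33, 7.68 and 8.28 at 6 h on the named set, all lower at 6 h. Its brightest set gave a difference of -0.04. The small heat shock protein CRYAB gave -0.91 on a dim set, mostly from pig 2 (-2.10), and 0.02 on the bright one. The ribosomal protein RPL6 gave -0.71 and 0.03, the elongation factor -0.68 and -0.10, and the lysosomal protease CTSC -0.99 and -0.10. Caveolin CAV1 gave 0.68 and 0.13, and the SUMO protease SENP2 0.53 and -0.08. Over the 2256 genes with several probe sets, 5 of the brightest sets and 14 of the 3295 others were more than 1.5-fold lower at 6 h. Of all probe sets, 0.246% were. At an unadjusted p under 0.05, 3.81% of the brightest sets were lower and 4.39% higher, against 4.40% and 6.31% of the others. In 11 of the 2256 genes, probe sets of opposite sign each had an unadjusted p under 0.05. Which transcript ends each set covers was not analysed here.

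**Figure D3:**
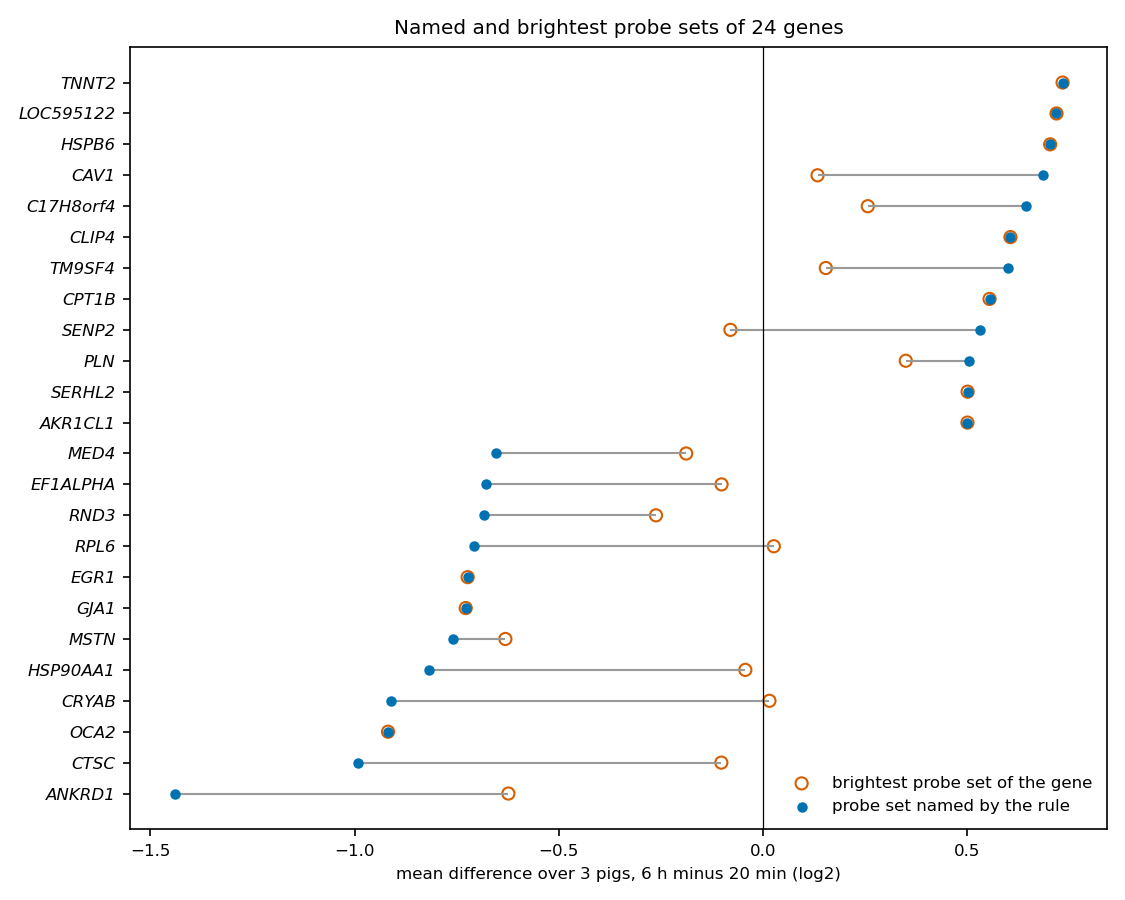
Mean difference between 6 h and 20 min over 3 pigs (horizontal, log2) of the 24 genes named by rule, on the named probe set (filled) and on the brightest probe set of the gene (open). Lines join different sets of 1 gene; the difference is close to 0 on the bright set of HSP90AA1 (-0.04), CRYAB (0.02) and RPL6 (0.03).

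Gene lists were described with 1 probe set per gene, the brightest, over 6774 genes. Of these genes 48.7% had a higher and 51.3% a lower mean at 6 h, 16% were higher and 17.8% lower in 3 of 3 pigs, and 4.81% and 3.99% had an unadjusted p under 0.05 in these directions. The median difference over all genes was -0.01. No member of any of the 35 lists, 710 genes in all, passed an adjusted p of 0.05. The mean of a list had the same sign in the 3 pigs for 14 lists, 7 higher and 7 lower.

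**Figure D4:**
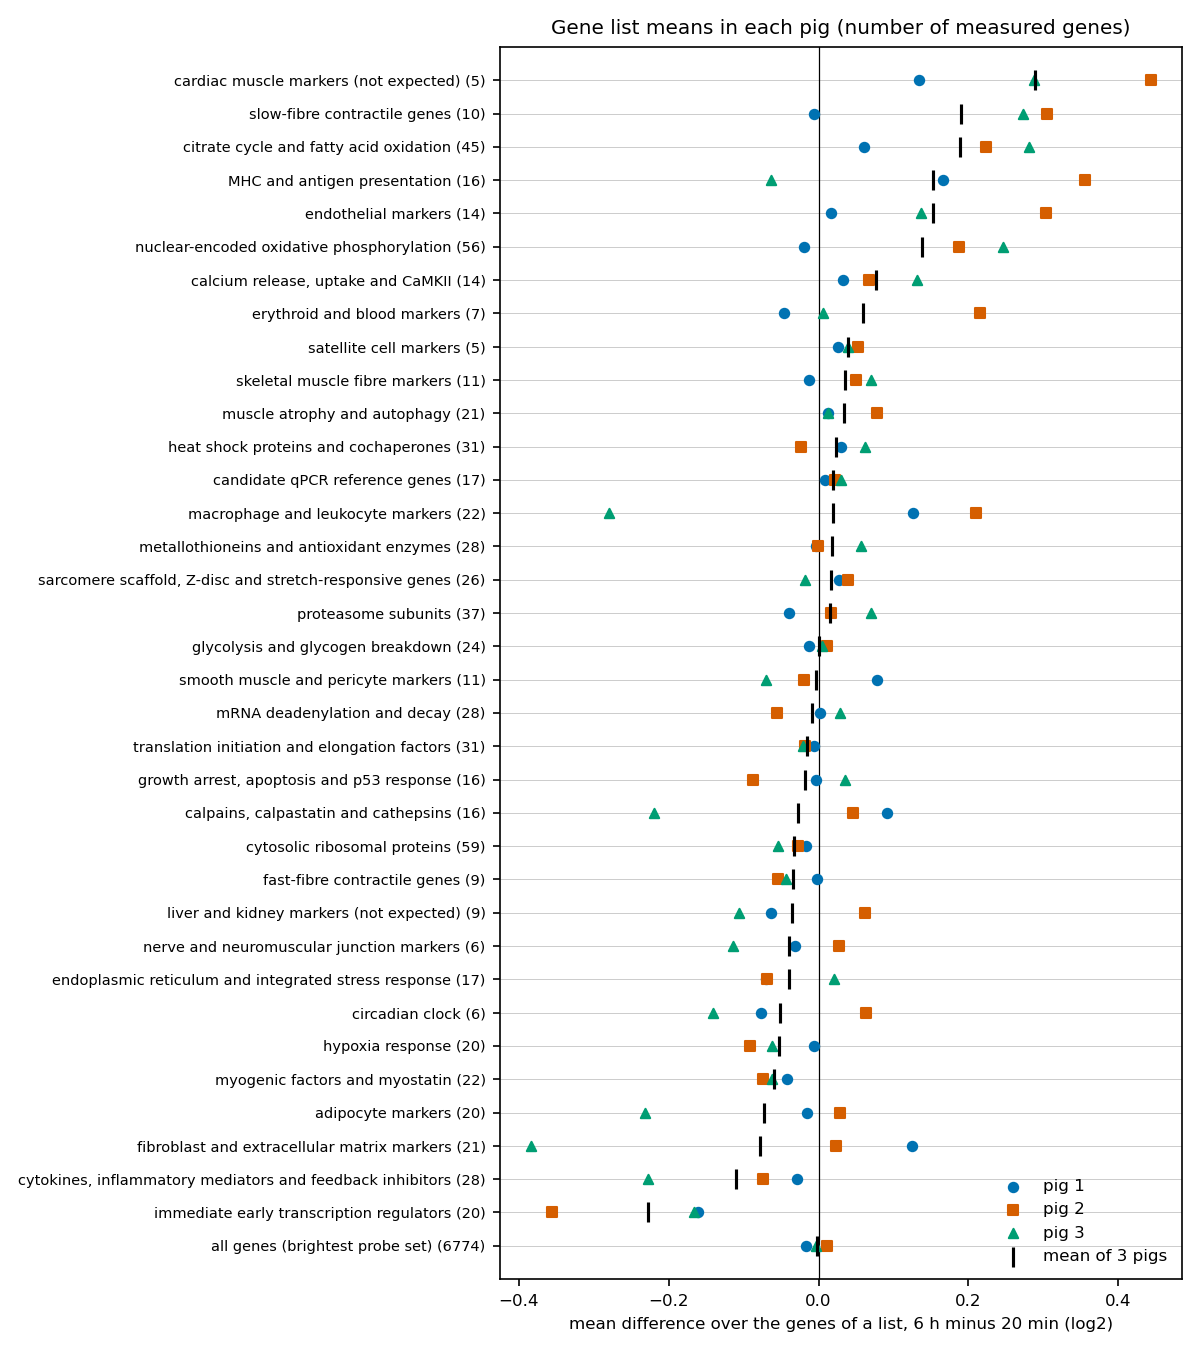
Mean difference between 6 h and 20 min (horizontal, log2) over the genes of each of 35 lists and over all genes, for each pig (symbols) and for the 3 pigs together (bar); the number of genes is in brackets. The list for citrate cycle enzymes plus fatty acid oxidation lies above 0 in each pig (0.06, 0.22 and 0.28) and the immediate early list below 0 in each (-0.16, -0.36 and -0.17).

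Genes of mitochondrial fuel use had higher means at 6 h than at 20 min. In the list for citrate cycle enzymes plus fatty acid oxidation, 42 of 45 genes had a higher mean, 31 were higher in 3 of 3 pigs, and 20 had an unadjusted p under 0.05 in that direction and 0 in the other. The median difference was 0.19. The list's mean was 0.06, 0.22 and 0.28 for pigs 1 to 3. Earlier results of these data had shown higher means of this group, so its direction is no independent evidence.

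Within this list, the fatty acid branch held several of the higher values. The fatty acid carrier FABP3 read 13.42, 13.09 and 12.86 at 20 min and 13.47, 13.49 and 13.50 at 6 h. All 6 h arrays lay above the 20 min arrays, and the 6 h arrays were nearly equal. ACADVL, the first dehydrogenase of long-chain oxidation, differed by 0.00, 0.54 and 0.65 in the 3 pigs. The trifunctional protein subunits differed in the mean by 0.30 (HADHA) and 0.36 (HADHB), and the enoyl-CoA isomerase ECI1 by 0.35.

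In the citrate cycle, malate dehydrogenase MDH2 was higher in each pig, with 12.02, 12.28 and 11.82 at 20 min and 12.29, 12.71 and 12.27 at 6 h. Its mean difference was 0.38 ± 0.10 (SD, n = 3 pigs). Isocitrate dehydrogenase IDH2 differed by 0.29, succinate dehydrogenase SDHA by 0.22 and the pyruvate dehydrogenase subunit PDHA1 by 0.30. In pig 1 these differences were 0.02, 0.08 and 0.02. CPT1A, the liver-type counterpart of CPT1B, had a lower mean (-0.22 ± 0.11, SD, n = 3 pigs). PPARGC1A, a coactivator that promotes the formation of mitochondria, differed by -0.19, -0.64 and 0.79, with a mean of -0.01. HADHA, HADHB, ACADVL, IDH2, PDHA1, CPT1A and PPARGC1A were chosen after their values were seen.

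The nuclear-encoded subunits of oxidative phosphorylation were alike in direction and smaller in size. Of 56 genes, 55 had a higher mean at 6 h, 20 were higher in 3 of 3 pigs and 14 had an unadjusted p under 0.05, none of them lower. The median difference was 0.12. The list's mean was -0.02, 0.19 and 0.25 for pigs 1 to 3, so the direction came from 2 of the 3 animals. By complex, 33 of 33 genes of complex I, 2 of 2 of complex III, 7 of 7 of complex IV and 13 of 14 of complex V had higher means, with medians of 0.13, 0.13, 0.12 and 0.10.

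NDUFA13, a complex I subunit, read 11.96, 11.65 and 11.37 at 20 min and 12.11, 12.18 and 12.07 at 6 h, with a mean difference of 0.46. NDUFS7, an iron-sulphur subunit, read 11.40, 11.26 and 10.91, then 11.47, 11.74 and 11.50, and differed by 0.38. NDUFA10 differed by 0.35. In these 3 genes each 6 h array lay above each 20 min array, and the difference in pig 1 was the smallest (0.15, 0.07 and 0.12). The alpha subunit of ATP synthase, ATP5A1, differed by 0.08.

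**Figure D5:**
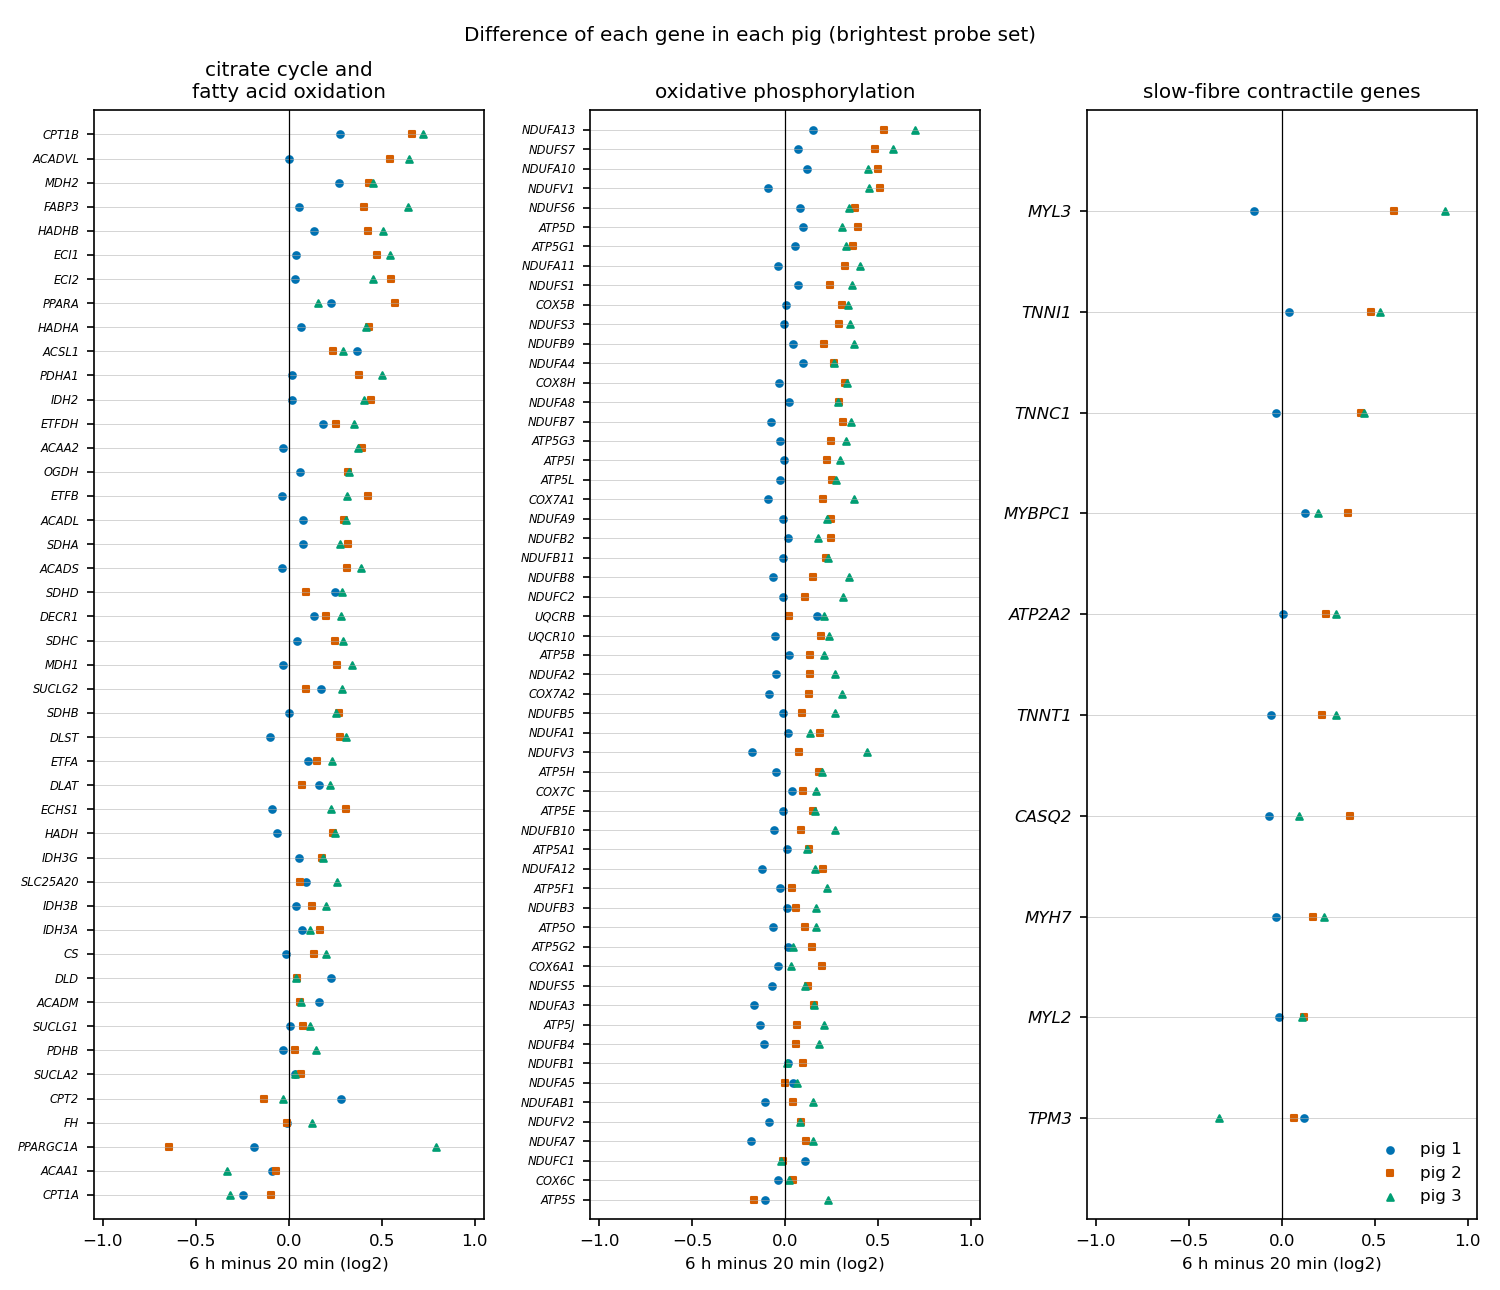
Difference between 6 h and 20 min (horizontal, log2) of each gene in each pig (symbols) for the citrate cycle plus fatty acid oxidation, oxidative phosphorylation and slow-fibre lists. Pigs 2 and 3 lie to the right of 0 for most genes, while pig 1 lies near 0, with list means of 0.06, -0.02 and -0.01.

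Slow fibres are rich in mitochondria, and their contractile genes followed the same arrangement over the pigs. Of 10 genes, 9 had a higher mean at 6 h, 3 were higher in 3 of 3 pigs and 4 had an unadjusted p under 0.05, with a median of 0.16 and means of -0.01, 0.30 and 0.27 in pigs 1 to 3. Slow troponin I, TNNI1, read 13.94, 13.51 and 13.33 at 20 min and 13.98, 13.99 and 13.86 at 6 h. The slow light chain MYL3 differed by -0.15, 0.60 and 0.88, and slow troponin C, TNNC1, by -0.03, 0.43 and 0.44. The slow myosin heavy chain MYH7 differed by 0.12 and the light chain MYL2 by 0.07. The mean level of the list was 12.60, 12.28 and 12.27 at 20 min and 12.60, 12.58 and 12.54 at 6 h, so the 20 min arrays of pigs 2 and 3 stood below the other 4.

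Of 9 fast-fibre genes, 8 had a lower mean at 6 h and none an unadjusted p under 0.05. Their differences lay between -0.08 and 0.03, with -0.08 in the fast myosin MYH2 and -0.01 in fast troponin C, TNNC2. Their median level was 14.18, against 13.79 for the slow-fibre list and 14.81 for the brightest probe set of all. Whether signals so near the top of the scale understate differences was not tested. In a muscle portion, a different share of slow fibres and a different RNA level per fibre cannot be told apart.

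Immediate early genes, whose transcripts appear within minutes of a stimulus and are short-lived, had lower means at 6 h. Of 20 genes, 16 had a lower mean, 8 were lower in 3 of 3 pigs, and 5 had an unadjusted p under 0.05, all lower. The median was -0.22, and the means were -0.16, -0.36 and -0.17 in pigs 1 to 3. Earlier results of these data had shown their lower means too.

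FOS read 8.78, 12.74 and 12.51 at 20 min and 7.87, 12.21 and 12.15 at 6 h. Each pig was lower, by -0.92, -0.53 and -0.35, but pig 1 stood far below the others at both times. EGR1 read 5.87, 9.33 and 8.73, then 5.61, 7.94 and 8.20, with the same gap between pig 1 and the others. IER5, a growth-factor response gene, differed by -0.45 ± 0.15 (SD, n = 3 pigs) and ATF3, a stress-induced repressor, by -0.88 ± 0.66 (SD, n = 3 pigs). MYC differed by -0.51 and JUN by -0.21, the latter almost entirely in pig 2 (-0.63). The members with higher means included the clock-linked repressor BHLHE40, with 0.27. The bright member CEBPB differed by -0.06. ATF3, MYC, JUN and BHLHE40 were chosen after their values were seen.

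Stress genes were described in separate lists. Among 31 heat shock proteins and cochaperones, 16 had higher and 15 lower means, with a median of 0.00, and HSPB6 was the 1 member with an unadjusted p under 0.05. HSPB7, another small muscle chaperone, differed by 0.36, named after its values were seen, and the factor HSF2 by -0.28. In the endoplasmic reticulum list 6 of 17 genes had higher means, including the lectin chaperone CANX (0.24), and 11 had lower means, including the transcription factor XBP1 (-0.22). ATF4 differed by -0.06.

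Among 20 hypoxia-response genes, 14 had lower means, with a median of -0.06. ANKRD37, a target of hypoxia-inducible factor, read 6.87, 7.72 and 6.93 at 20 min and 6.68, 5.87 and 6.68 at 6 h. All 6 h arrays lay below the 20 min arrays, as for 3.81% of all probe sets, and most of the difference of -0.76 ± 0.94 (SD, n = 3 pigs) was in pig 2. The collagen cross-linker LOX differed by -0.21 and the growth factor VEGFB by 0.35. The metal-binding MT-2B was lower in each pig (-0.95, -0.31 and -0.18), while its list of metallothioneins with antioxidant enzymes had higher means in 17 of 28 genes and a median of 0.05. The glutathione transferase GSTA1 (0.28) and the peroxiredoxin PRDX2 (0.25) had higher means.

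Glycolysis and glycogen genes had a median difference of -0.04 over 24 genes, 8 higher and 16 lower. Glycogen synthase GYS1 differed by 0.42 ± 0.26 (SD, n = 3 pigs) and the insulin-responsive glucose transporter SLC2A4 by 0.26, higher in each pig. The phosphorylase PYGM differed by 0.01 and GAPDH by -0.03. The lactate dehydrogenase LDHB, the form of oxidative tissue, differed by -0.16, 0.48 and 0.40, and was, like PYGM, chosen after its values were seen.

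Inflammatory mediators had lower means in 22 of 28 genes, with a median of -0.09 and means of -0.03, -0.07 and -0.23 in pigs 1 to 3. Of the 28, 5 were lower in 3 of 3 pigs, and 2 (7.14%) were lower at an unadjusted p under 0.05. Over all genes, 17.8% and 3.99% were. NFKBIA, the inhibitor of NF-kappa-B, read 9.21, 9.14 and 9.09 at 20 min and 9.04, 8.85 and 8.54 at 6 h, all below, with a difference of -0.33 ± 0.19 (SD, n = 3 pigs). The pattern-recognition protein PTX3 differed by -0.59 and the cytokine IL1B by -0.36 ± 0.06 (SD, n = 3 pigs). Antigen presentation genes leaned the other way, with higher means in 15 of 16 genes and a median of 0.11, but the pigs disagreed: 0.17, 0.36 and -0.06. Of the 16, 5 were higher in 3 of 3 pigs, and 3 (18.8%) were higher at an unadjusted p under 0.05. The invariant chain CD74 read 8.70, 8.45 and 8.92 at 20 min and 9.18, 9.45 and 9.08 at 6 h, and the peptide-loading protein TAPBP differed by 0.35. The class I and class II genes SLA-2 and SLA-DRB1 differed by 0.33 and 0.30; such near-identical family members may share probe signal, so their values are uncertain. SLA-DRB1 was chosen after its values were seen.

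Calcium-handling genes had a median of 0.09 over 14 genes, with higher means in the kinase CAMK2B (0.27 ± 0.06, SD, n = 3 pigs) and the store-operated channel ORAI1 (0.30), and a lower mean in the calcineurin subunit PPP3CA (-0.26). The Z-disc genes had a median of 0.03 over 26 genes, with TCAP at 0.27, desmin (DES) at 0.20 and titin (TTN) at 0.00. Myogenic regulators had a median of -0.04 over 22 genes. The myostatin-binding follistatin FST differed by -0.37 and the factor MEF2A by -0.22.

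Calpains, calpastatin and cathepsins, proteases and an inhibitor studied in meat tenderness, had a median of 0.01 over 16 genes, none with an unadjusted p under 0.05. Their list means were 0.09, 0.05 and -0.22 in pigs 1 to 3. Cathepsin K, CTSK, differed by 0.18, -0.31 and -0.99, and the muscle calpain CAPN3 by 0.01 in the mean. The atrophy and autophagy list had a median of 0.03 over 21 genes, with the kinase AKT1 at 0.30 and the ubiquitin ligase FBXO32 at 0.10. Proteasome subunits had a median of -0.01 over 37 genes, with PSMD3 at 0.31 and PSMB3 at 0.38, the latter mostly from pig 3 (0.80). Ribosomal protein genes had lower means in 46 of 59, of which 26 were lower in 3 of 3 pigs, with a median of -0.04, a range from -0.21 to 0.14 and 1 member (1.69%) lower at an unadjusted p under 0.05. The lowest was RPS18 (-0.21), and the brightest, RPS29, differed by -0.01. On the 36 other probe sets of these genes, 24 had lower means, and 10 (27.8%) were lower and 2 (5.56%) higher at an unadjusted p under 0.05. Their differences had a median of -0.07 and ran from -0.71 to 0.43. Of the 3295 sets other than the brightest over all genes with several sets, 4.40% were lower and 6.31% higher at an unadjusted p under 0.05.

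Lists with little shift and few members past an unadjusted p of 0.05 were those of growth arrest and p53 (median 0.02, 0 of 16), translation factors (-0.03, 1 of 31, EIF3D at 0.19), mRNA decay (0.00, 1 of 28, EXOSC3 at -0.24) and the circadian clock (-0.06, 0 of 6). Of 17 genes used as references in quantitative PCR, 3 had an unadjusted p under 0.05, all higher: the transferrin receptor TFRC (0.65), SDHA (0.22) and YWHAZ (0.27). ACTG1 differed by -0.01.

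Markers of other cells in the portions also differed between the pigs. Endothelial markers had higher means in 14 of 14 genes, with a median of 0.12 and means of 0.02, 0.30 and 0.14. Of these genes, 4 were higher in 3 of 3 pigs. At an unadjusted p under 0.05, 1 (7.14%) was higher, against 4.81% of all genes. Their mean level over the list ran from 7.37 to 7.43 at 20 min and from 7.38 to 7.73 at 6 h. The endothelial coreceptor ENG differed by -0.01, 0.60 and 0.38. Fibroblast and matrix markers had lower means in 15 of 21 genes, with 1 lower and 1 higher in 3 of 3 pigs. The means were 0.12, 0.02 and -0.38, and the list levels 8.45 to 9.04 at 20 min and 8.47 to 8.81 at 6 h. The proteoglycan DCN differed by 0.40, -0.27 and -0.57. The collagen COL3A1 (-0.26) and the matrix protein FBLN1 (-0.29) had lower means, and the collagen COL15A1 a higher one (0.22).

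Macrophage and leukocyte markers split by animal, with higher means in 13 of 22 genes and list means of 0.13, 0.21 and -0.28. The complement component C1QC differed by 0.42, 0.41 and -1.26, the scavenger receptor CD163 by 0.13, 0.14 and -0.81 and the lysosomal protein LAPTM5 by 0.71, 0.73 and -0.78. Not all members were split in this way. The dim CD3E (0.22, 0.07 and 0.13) and CD86 (0.07, 0.26 and 0.09) were higher in each pig, and CD8A differed by 0.52, 0.21 and -0.04. The list level ran from 5.30 to 5.60 at 20 min and from 5.32 to 5.62 at 6 h. C1QC, CD163 and DCN were chosen after their values were seen.

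Adipocyte markers had higher means in 11 of 20 genes, with a median of 0.01, and 3 were higher and 4 lower in 3 of 3 pigs. The list means were -0.01, 0.03 and -0.23, and the list levels 7.14 to 7.39 at 20 min and 7.12 to 7.23 at 6 h. The 9 with lower means included ADIPOQ, the triglyceride-forming enzyme DGAT2 (-0.63), the lipid-droplet protein CIDEA (-0.39) and the desaturase SCD (-0.32). The last 3 were chosen from the lower members after their values were seen, so they do not stand for the list. The triglyceride lipase PNPLA2, which muscle also expresses, differed by -0.004, 0.31 and 0.61. Lipoprotein lipase LPL, which muscle fibres also make, was higher in each pig (0.38, 0.44 and 0.52). Smooth muscle and pericyte markers had list means of 0.08, -0.02 and -0.07, with SMTN at 0.40, RGS5 at 0.32 and ACTA2 at -0.06. Erythroid markers had list means of -0.05, 0.22 and 0.01. The 5 cardiac markers, a list not expected in this muscle, all had higher means (median 0.24). Their list mean, 0.29, was the highest of the 35 lists, with 0.13, 0.44 and 0.29 in pigs 1 to 3. At an unadjusted p under 0.05, 2 of them (40%) were higher, against 4.81% of all genes, and the highest was TNNT2 (0.73). The 9 liver and kidney markers had a median of -0.04. Nerve and satellite cell markers had medians of -0.09 over 6 genes and 0.13 over 5. Among the members of these lists, the atrial myosin light chain MYL4 (0.24) and albumin, ALB (0.32, mostly from pig 2), had higher means. The neurofilament gene NEFL had a lower one (-0.42). RMA values have no zero, so absent markers cannot be told from dim ones, and the part of cell makeup in the differences of the other lists was not tested.

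The 6 h values were also set beside those at 2 h. In that comparison no probe set had an adjusted p under 0.05 in limma (smallest 0.9997), and 542 had an unadjusted p under 0.05, or 2.26%. That is fewer than the 1199.95 expected on average where nothing differs. Of the 24 named genes, 1 had an unadjusted p under 0.05 there: TNNT2, which was 0.53 higher at 6 h than at 2 h. The genes with the greatest differences among the 20 smallest p-values were dim. CYP39A1, HIF1A and CDH1 were higher at 6 h by 0.39, 0.39 and 0.37, and RANBP1, MYO10 and FCF1 lower (-0.38, -0.38 and -0.39). HIF1A, the oxygen-regulated subunit of hypoxia-inducible factor, read 4.29, 3.47 and 4.28 at 2 h and 4.73, 4.04 and 4.43 at 6 h. Of these 6 genes, 5 were named on a probe set that was not the brightest of the gene, and the brightest HIF1A set differed by 0.03 between 6 h and 2 h.

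The 24 h and 6 h arrays did not differ at an adjusted p under 0.05 either (smallest 0.533, with 1938 probe sets, or 8.08%, at an unadjusted p under 0.05). The comparisons of 2 h, 6 h and 24 h with 20 min share the 20 min arrays, so their values are given side by side only. HSPB6 stood at 0.70, 0.70 and 0.71 above 20 min, CPT1B at 0.48, 0.55 and 0.41, and OCA2 differed by -0.80, -0.92 and -1.39. The list for citrate cycle enzymes plus fatty acid oxidation had means of 0.15, 0.19 and 0.17, and the immediate early list -0.21, -0.23 and -0.40. On the named probe sets of CAV1 (0.71, 0.68 and -0.08) and SENP2 (0.40, 0.53 and 0.01) the 24 h value was near 0. These were not the brightest sets of their genes. The brightest CAV1 set stood at 0.13, 0.13 and 0.09, and the brightest SENP2 set at -0.08 at 6 h.

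The count of calls depended on 1 array. Without the 20 min array of pig 1, 46 probe sets had an adjusted p under 0.05 in limma, 23 higher and 23 lower at 6 h, and 22 of them carried 1 gene symbol. This fit holds no pair of 20 min and 6 h arrays from pig 1. Of the 46, 37 differed by less than 0.3 either way in pig 1. The SD of the pig 1 differences over all probe sets was 0.20, so differences this small were usual there. The 20 min array of pig 1 had the lowest weight of the 12, 0.486, when arrays were weighted by their agreement with the model. Leaving out pig 1 at all times gave 0 calls, as did leaving out either other pig or any other single array of 20 min or 6 h; the 2 h and 24 h arrays were not left out singly.

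The 23 with higher values in that fit included CPT1B (0.70), ACADVL (0.60), the peroxisomal coenzyme A hydrolase NUDT7 (0.76), the acyl-CoA thioesterase ACOT6 (0.61) and PANK1 (0.65), which starts coenzyme A synthesis. HSPB6 (0.96), the nitric oxide pathway enzyme DDAH1 (0.83) and the mitochondrial malic enzyme ME3 (0.64) were also called. Those with lower values included ADIPOQ (-1.57), OCA2 (-1.06), the galectin LGALS3 (-0.86) and the glutathione transferase MGST1 (-0.85). In pig 1 itself, NUDT7 differed by -0.02, DDAH1 by -0.004, ME3 by -0.06 and LGALS3 by 0.31. These genes were chosen after their values were seen.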

How the data were processed

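The authors deposited 1 log2 intensity for each probe set and array, obtained with RMA (affy) according to the submitters' processing notes. Versions of these tools and the signal over background are not stated in the sources at hand; precision is limited by how few arrays there are. Gene names came from the array's platform annotation, which can be old, from probe sets with 1 symbol (10099) only; coordinates and sequences were not used here, so the planned promoter search was not run. Groups and pig numbers came from the sample titles; no 2 arrays were identical. With limma 3.58.1 in R 4.3.3, all 12 arrays were fitted together on time (4 levels) and pig, a fixed replicate block. Two-sided p-values were adjusted by Benjamini-Hochberg over all 23999 probe sets, with no filter on level; the threshold was 0.05. The fits were run on simulated data with errors independent between probe sets and arrays. Such data hold no deviant array, so they do not test the dependence of the calls on a single array.

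The pigs pair the arrays by design: deviations from the time means correlated between 20 min and 6 h with r = 0.538, 0.552 and 0.590 within pigs. The p-values rest on how far these 3 animals differed in their time differences, pooled over all times including 2 h and 24 h. Differences in level between the animals are taken out by the block. The variance of each probe set is also drawn by limma toward a value common to all probe sets. Errors are SDs over pigs. Genes were named by rule: the 12 highest and 12 lowest differences of the same sign in 3 pigs among the 150 smallest p-values, because fewer than 5 passed; in each list the 3 members with the smallest p and the brightest; and 3 each way among the 20 smallest p-values for 6 h against 2 h. A gene with several sets among the smallest p-values was named once, on the set with the smallest p. Other genes are marked as chosen after their values were seen. Members and lists were chosen with earlier results of these data known.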

Additional observations from a re-analysis of the deposited data

How the results depend on the processing

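Without the replicate block (pig), 879 probe sets had an unadjusted p under 0.05 in place of 2119, and 0 an adjusted one; with pig as a random block the counts were 1755 and 0. Array weights gave 1 (OCA2), 3357 and, over 1.5-fold, 137 in place of 79. With 1 probe set per gene, 696 had an unadjusted p under 0.05 and 22 differed over 1.5-fold; at 2-fold there were 3. Leaving out 1 array of 20 min or 6 h, or 1 pig, at a time gave 0 to 46 past an adjusted p of 0.05, 1073 (without pig 2) to 3287 (without the 20 min array of pig 1) at an unadjusted p, and 53 (without the 6 h array of pig 2) to 292 (without pig 1 or without its 20 min array) over 1.5-fold. The dim filter, both rescalings, the trended prior and the 6 arrays alone kept all these counts within 1.5 times, and 6 h against 2 h, which could not be fitted from those 6 arrays, gave 0 throughout.

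Of 160 genes, 146 kept their sign under every alternative run. The exceptions, all with means close to 0 or with pigs of opposite sign, ranged as follows when these arrays or pigs were left out: CRYAB (bright set) -0.047 to 0.055, TTN -0.022 to 0.036, RPS29 -0.044 to 0.011, ACTG1 -0.021 to 0.0041, SPARC -0.10 to 0.091, CAPN3 -0.0097 to 0.030, LAPTM5 -0.062 to 0.72, TOB1 -0.14 to 0.063, ACTA2 -0.15 to 0.065, CEBPB -0.12 to 0.015, DCN -0.42 to 0.066, PPARGC1A -0.42 to 0.30, C1QC -0.46 to 0.46 and CD163 -0.46 to 0.27. TTN was -0.010 under cyclic loess, and array weights gave RPS29 0.0027 and PPARGC1A 0.0043. Of 35 lists, 16 changed the sign of their mean under some alternative, which the oxidative, slow-fibre, immediate early, inflammatory, antigen presentation and endothelial lists did not. The causes were not tested.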
